A study of Drosophila melanogaster with 4 samples.

Results

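A set of 10 genes of membrane excitability were examined in heads of flies fed a potassium channel blocker. They are the potassium channel genes Shab and Sh, the channel partners Slob and Dyb and the channel subunit genes Teh1 and unc80. The others are the chloride transport gene ClC-b and the ion transport genes nrv3, Nhe3 and Nckx30C. The 10 were listed by symbol in the array annotation and each had a value on at least 3 of 4 arrays, out of 1379 named genes with that many values and 6793 named genes on the array. Heads came from unmated adult males of the wild-type strain Oregon-R, aged 3 to 4 days at the start. Flies received either 16 mg/ml tetraethylammonium chloride (TEA) in the food or normal food for 7 days, at 30 flies per vial. On each of 4 cDNA arrays a pool of TEA heads was hybridised against a pool of control heads, 1 array per biological replicate. TEA carried the dye Cy5 in replicates 1 and 2 and the dye Cy3 in replicates 3 and 4.

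TEA is a small organic cation that enters the pore of many voltage-gated and calcium-activated potassium channels and stops potassium from leaving the cell. Potassium currents bring a neuron back to rest after an action potential, sodium and calcium channels drive it away from rest, and pumps and exchangers maintain the ion gradients on which both depend. A ratio from whole heads averages neurons, glia, eye, fat body and muscle, so fewer cells of a type and less RNA per cell cannot be told apart.

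Every value below is a log2 ratio of TEA over control unless stated otherwise, with each array centred on the median of its probes, so that 0 is the typical probe of that array. The sources used here do not state which dye stands on top of the deposited ratio. It was read as Cy5 over Cy3, and the columns of replicates 3 and 4 were turned in sign. If the ratio ran the other way on every array, every sign below would turn.

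None of the 10 genes passed the limma test of TEA against control heads, at an adjusted p under 0.05 or at an unadjusted p under 0.05. Over all 1379 genes 8 passed the adjusted threshold, which is 0.58%, and 155 had an unadjusted p under 0.05, which is 11.2%. The 10 genes had a median log2 ratio of -0.01, with 5 above and 5 below 0, against a median of -0.01 for all genes tested. Their means lay between -0.36 for Shab and 0.32 for nrv3, and every 95% interval included 0. An exact sign-flip test over arrays cannot reach a p below 0.125 with 4 arrays or 0.25 with 3, so the fit across all genes was used.

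**Figure D1:**
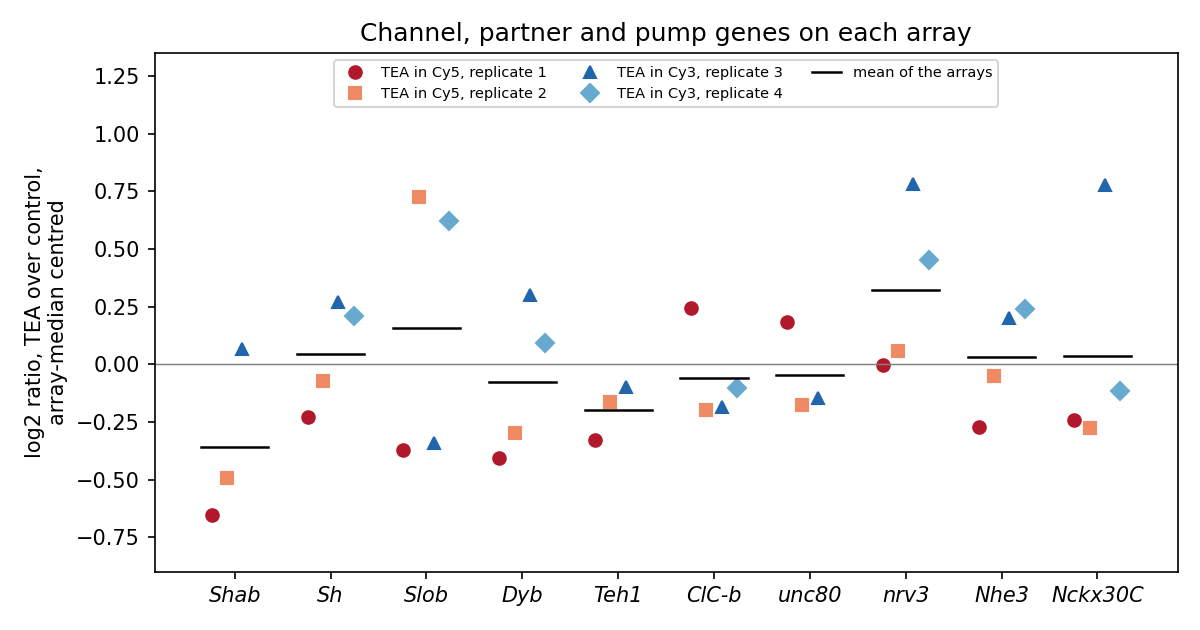
Log2 ratio of TEA over control (vertical axis, array-median centred) for the 10 genes (horizontal axis), with 1 point per array, red for TEA in Cy5 and blue for TEA in Cy3, and a black bar at the mean of the arrays. The blue points of Shab, Sh, Dyb, Teh1, nrv3, Nhe3 and Nckx30C all lie above the red ones, and the points of Slob form 2 pairs that each hold both colours.

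Shab encodes the Kv2 delayed rectifier, a slowly inactivating potassium channel that repolarises neurons. Its log2 ratio was -0.65 in replicate 1, -0.49 in replicate 2 and 0.07 in replicate 3, and it had no value in replicate 4. Both arrays with TEA in Cy5 were low and the array with TEA in Cy3 was near 0, so the orientations did not overlap. The mean was -0.36 ± 0.16 (SE, n = 3; limma adjusted p = 0.457), a level 0.779-fold that of control heads with a 95% interval of 0.598-fold to 1.01-fold. Without replicate 1 it was -0.21 (n = 2; limma adjusted p = 0.688). Without replicate 3 it was -0.57 (n = 2; limma adjusted p = 0.099), from 2 arrays that both had TEA in Cy5. With 2 arrays of 1 orientation and 1 of the other, a dye effect does not cancel in this mean. When both orientations were weighted equally in a model with a dye term it was -0.25 ± 0.12 (SE; limma adjusted p = 0.217). The duplicate spots of Shab, as deposited and read as Cy5 over Cy3, differed by 0.003 in replicate 1, 0.012 in replicate 2 and 0.24 in replicate 3. The value near 0 was therefore the one on which the spots agreed least. Across all probes 30.5% of spot pairs differed by more than 0.2, so a gap of 0.24 was not unusual.

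Sh, Shaker, encodes the Kv1 channel of the fast transient potassium current. Sh had a log2 ratio of -0.23 and -0.07 in replicates 1 and 2, and 0.27 and 0.21 in replicates 3 and 4. The arrays with TEA in Cy5 lay below 0 and those with TEA in Cy3 above it. The mean was 0.04 ± 0.12 (SE, n = 4; limma adjusted p = 0.905), with a 95% interval of 0.856-fold to 1.24-fold. Sh was the only gene of the 10 with values from 2 probes. The first probe gave -0.11, -0.05, 0.33 and 0.17 in replicates 1 to 4, and the second gave -0.34, -0.10, 0.21 and 0.25. Both probes showed the same split between the orientations, and their means were 0.09 and 0.00.

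Slob encodes a protein that binds Slowpoke, the large-conductance calcium-activated potassium channel, and modulates its gating. Slob had a log2 ratio of -0.37 and 0.73 in replicates 1 and 2, and -0.34 and 0.62 in replicates 3 and 4. Replicates 2 and 4 were high and replicates 1 and 3 low, so each dye orientation held 1 high and 1 low array. The mean was 0.16 ± 0.20 (SE, n = 4; limma adjusted p = 0.779). Its SD over the 4 arrays was 0.60, against a median SD of 0.22 over the 995 genes with 4 values, and 4.32% of those genes had a larger SD. The duplicate spots of Slob differed by at most 0.16 on any array, which covers the reading of 1 slide and not the variation between slides. The mean in each orientation was alike, 0.18 with TEA in Cy5 and 0.14 with TEA in Cy3, and neither describes any single array.

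Dyb encodes dystrobrevin, a cytoplasmic member of the dystrophin complex, which in the worm Caenorhabditis elegans is linked to the placing of the Slowpoke-type channel in muscle. Dyb had a log2 ratio of -0.40 and -0.30 in replicates 1 and 2, and 0.30 and 0.09 in replicates 3 and 4. As for Sh, the sign followed the dye. The mean was -0.08 ± 0.14 (SE, n = 4; limma adjusted p = 0.848).

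Of the other channel genes, Teh1 encodes an auxiliary subunit of the fly voltage-gated sodium channel. Its log2 ratio was -0.33 and -0.16 in replicates 1 and 2 and -0.10 in replicate 3, with no value in replicate 4. It was the only gene of the 10 with 1 sign on every array that measured it, 1 of 3 genes with 3 values, against 33.3% of all genes with 3 values. In the deposited values without centring this was lost, with -0.42 and -0.24 in replicates 1 and 2 and 0.15 in replicate 3. The mean was -0.20 ± 0.12 (SE, n = 3; limma adjusted p = 0.575). None of the 7 genes with 4 values had 1 sign on all arrays, against 18.5% of all genes with 4 values.

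unc80 encodes a subunit of the sodium leak channel complex, which sets resting excitability and daily rhythms of locomotion. Its log2 ratio was 0.18 and -0.18 in replicates 1 and 2 and -0.14 in replicate 3. Replicate 1 stood apart from the other 2, and the mean was -0.05 ± 0.13 (SE, n = 3; limma adjusted p = 0.912). ClC-b encodes a chloride transport protein of the ClC family, and its log2 ratio was 0.24 and -0.20 in replicates 1 and 2, and -0.19 and -0.10 in replicates 3 and 4. The pattern resembled that of unc80, with replicate 1 above 0 and the other arrays below it, and the mean was -0.06 ± 0.11 (SE, n = 4; limma adjusted p = 0.854). For these 2 genes and Slob the orientations overlapped, and for the other 7 they did not.

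Among the transport genes, nrv3 encodes a beta subunit of the sodium pump in the nervous system. The nrv3 log2 ratio was -0.00 and 0.06 in replicates 1 and 2, and 0.78 and 0.45 in replicates 3 and 4. The arrays with TEA in Cy5 were at the array median and those with TEA in Cy3 well above it. The mean was 0.32 ± 0.14 (SE, n = 4; limma adjusted p = 0.453), a level 1.25-fold that of control heads with a 95% interval of 0.993-fold to 1.57-fold. The same mean passed in the model with a dye term (SE 0.10; limma adjusted p = 0.035). In that model 140 of the 1379 genes passed, which is 10.2%, against 1 of these 10. With 1 array left out of that model, a check chosen after seeing the data, the call for nrv3 held without replicate 4 (mean 0.40, limma adjusted p = 0.018). It was lost without replicate 1 (0.34, adjusted p = 0.333), replicate 2 (0.31, adjusted p = 0.521) and replicate 3 (0.24, adjusted p = 0.224). Each of these fits leaves 1 array in 1 of the orientations. Without a dye term the mean of nrv3 was 0.17 without replicate 3 and 0.43 without replicate 1.

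Nhe3 encodes a sodium/proton exchanger. Its log2 ratio was -0.27 and -0.05 in replicates 1 and 2, and 0.20 and 0.24 in replicates 3 and 4, a sign that followed the dye, with a mean of 0.03 ± 0.12 (SE, n = 4; limma adjusted p = 0.944). Nckx30C encodes a potassium-dependent sodium/calcium exchanger that removes calcium from neurons and photoreceptors. Its log2 ratio was -0.24 and -0.28 in replicates 1 and 2, and 0.78 and -0.12 in replicates 3 and 4. A single array, replicate 3, was high and the other 3 were below 0. The mean was 0.04 ± 0.18 (SE, n = 4; limma adjusted p = 0.960), and without replicate 3 it was -0.21. Both spots of Nckx30C were extreme on that array, at -0.997 and -1.05 as deposited and read as Cy5 over Cy3. A second Nckx30C probe passed the authors' filters on no array.

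**Figure D2:**
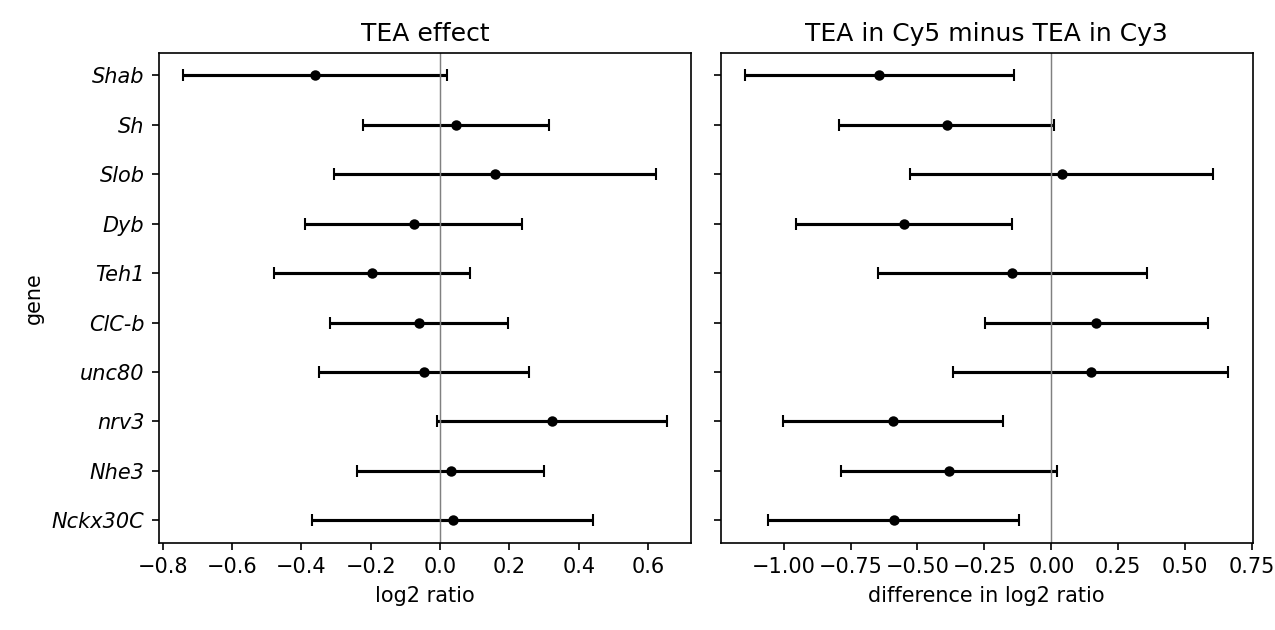
Left, the mean log2 ratio of TEA over control for each gene, and right, the difference in that ratio between arrays with TEA in Cy5 and arrays with TEA in Cy3. Bars are 95% intervals from the limma fits. All 10 intervals on the left include 0, and the intervals of Shab, Dyb, nrv3 and Nckx30C on the right do not.

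The next comparison asked whether the ratio read with TEA in Cy5 differed from that read with TEA in Cy3. The 7 genes Shab, Sh, Dyb, Teh1, nrv3, Nhe3 and Nckx30C were lower on every array with TEA in Cy5 than on any array with TEA in Cy3, and 0 of 10 were higher. Among all genes tested 32.2% were lower and 28.8% higher in this sense. For Shab, Sh, Dyb and Nhe3 the arrays also lay on opposite sides of 0, below it with TEA in Cy5 and above it with TEA in Cy3, as for 14.1% of all genes. The list's median was -0.16 over arrays with TEA in Cy5 and 0.17 over arrays with TEA in Cy3, against -0.02 and 0.00 for all genes.

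None of the 10 differences passed the limma test of the dye term, for which 126 of 1379 genes passed, which is 9.14%. At an unadjusted p under 0.05 there were 4 of 10, all lower with TEA in Cy5, against 24.7% of all genes in either direction and 14% lower. These 4 were Shab, whose difference in log2 ratio was -0.64 ± 0.24 (SE; limma adjusted p = 0.092), nrv3 at -0.59 ± 0.20 (limma adjusted p = 0.060), Nckx30C at -0.59 ± 0.23 (limma adjusted p = 0.096) and Dyb at -0.55 ± 0.20 (limma adjusted p = 0.074). Sh stood at -0.39 ± 0.20 and Nhe3 at -0.38 ± 0.20. Teh1 at -0.15, unc80 at 0.15, ClC-b at 0.17 and Slob at 0.04 had differences smaller than their SE. The difference for Nckx30C rested on replicate 3, without which it was -0.14. An exact test of 2 against 2 arrays cannot reach a p below 0.333. In the dye fit the variance of each gene was drawn strongly towards that of all genes, with a prior of 26 degrees of freedom.

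In the deposited values without centring, the difference passed for Shab (-0.97, limma adjusted p = 0.025), Dyb (-0.78, 0.027), nrv3 (-0.82, 0.020) and Nckx30C (-0.82, 0.020). That fit gave the same SE, 0.26, to every gene of the list with 4 values, and 0.32 to every one with 3. The adjusted p therefore followed the size of the difference and not the gene's own spread. The median difference over all genes was -0.26 in the deposited values and -0.02 after centring, since all 4 deposited columns had medians below 0, from -0.25 to -0.05, and turning 2 of them moves the orientations apart.

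**Figure D3:**
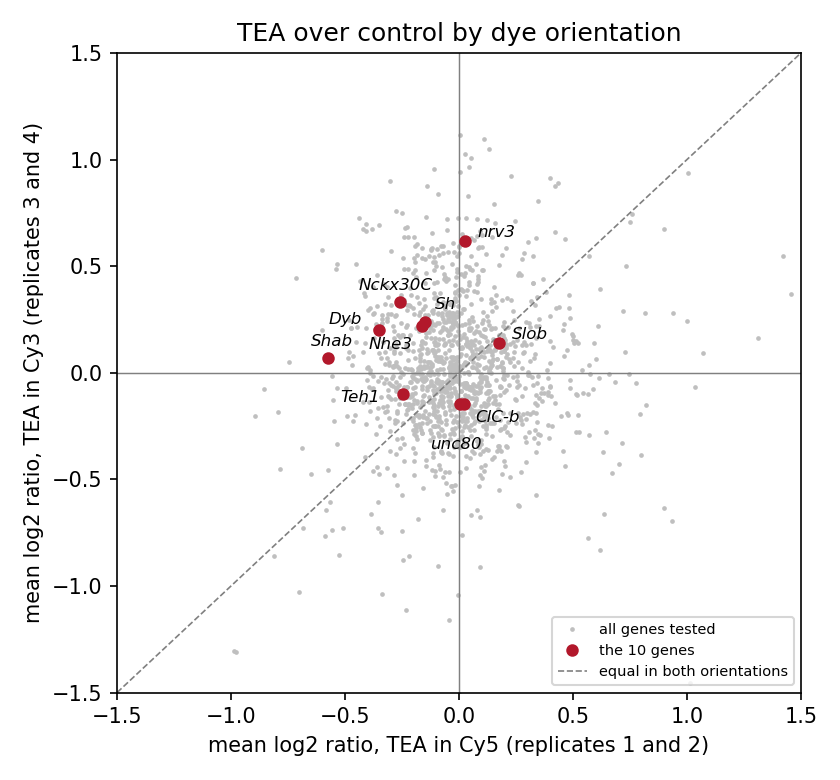
Mean log2 ratio of TEA over control with TEA in Cy5 (horizontal axis) against that with TEA in Cy3 (vertical axis), for all genes tested (grey) and the 10 genes (red). Shab, Sh, Dyb, Nhe3 and Nckx30C lie in the upper left part, nrv3 lies high and close to the vertical line at 0, and 6 genes outside 1.5 on either axis are not drawn.

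Values around each probe in the table were examined as well. Local medians over the surrounding table positions, 50 on either side, showed a shared offset in some places, and the place of these positions on the slide was not used here. Around nrv3 the local median was 0.00 and 0.09 in replicates 1 and 2, and 0.24 and 0.30 in replicates 3 and 4. The next position, Pal2, a peptide-amidating enzyme, had -0.11, 0.05, 0.59 and 0.43 in replicates 1 to 4. The preceding position, CG4297, had -0.27, -0.18, 0.30 and 0.34, below nrv3 on each array. Like nrv3, both neighbours were lower on every array with TEA in Cy5 than on any with TEA in Cy3. With each probe centred on its surroundings the nrv3 mean was 0.16 ± 0.11 (SE; limma adjusted p = 0.595), with its dye difference smaller as well at -0.37. Around Dyb the local median was -0.03 and -0.00 in replicates 1 and 2, and -0.12 and 0.09 in replicates 3 and 4, where in replicate 4 the value of Dyb was itself the median, and its dye difference was -0.55 after this centring. Around Teh1 the local median was -0.19 and -0.13 in replicates 1 and 2 and -0.11 in replicate 3, against values of -0.33, -0.16 and -0.10 for Teh1 itself, and the Teh1 mean was -0.054 ± 0.088 after this centring (SE; limma adjusted p = 0.843). The dye difference was also smaller after this centring for Shab (-0.43 against -0.64), Sh (-0.25 against -0.39), Nhe3 (-0.23 against -0.38) and Teh1 (-0.094 against -0.15). For Nckx30C, which loses replicate 4 under this centring, it was larger at -1.12. Around the first Sh probe the local median was 0.11, 0.17, 0.26 and -0.07 in replicates 1 to 4. Around the second Sh probe it was -0.11, -0.02, 0.07 and 0.48, so the probe's replicate 4 value of 0.25 lay below its surroundings. The position after that probe, CG9175, had -0.49, -0.14 and 0.245 in replicates 1 to 3. Around unc80 the local median was 0.12, -0.08 and -0.06 in replicates 1 to 3, with the same signs as unc80 itself. Around ClC-b it was 0.09, -0.02, -0.04 and -0.10 in replicates 1 to 4, again with the signs of the gene. In replicate 4 the value of ClC-b was itself the median. The part of table position in these results was not tested further.

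The genes with the most similar values were found by Euclidean distance over the 4 arrays among the 994 other genes with 4 values, as a description. The nearest to Sh was CG5708 (distance 0.04), to Dyb Mgat2 (0.06), to ClC-b casp (0.08), to Nhe3 cnk (0.08), to nrv3 CG6983 (0.12), to Nckx30C the serotonin receptor gene 5-HT1A (0.26) and to Slob CG7384 (0.41). The median distance from the same genes to all others ran from 0.59 for Sh to 1.21 for Slob. CG7384 had -0.12 and 0.60 in replicates 1 and 2, and -0.64 and 0.61 in replicates 3 and 4, with the same high and low arrays as Slob.

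Wider lists show how much of the excitability machinery these arrays reported. Of 26 potassium channel genes and partners, 14 were named on the array, 5 were tested and 0 passed in either direction. The 9 others, Shal, sei, Elk, Irk1, Irk2, Irk3, Ork1, Ih and qvr, had no value on any array, which means that their spots did not pass the authors' filters. The tested gene outside the 10, SKIP, encodes a protein that interacts with the Shal channel. The SKIP log2 ratio was -0.77 and -0.44 in replicates 1 and 2, and 0.24 and 0.91 in replicates 3 and 4, a wide split by dye with a mean of -0.01 ± 0.24 (SE, n = 4; limma adjusted p = 0.983). The dye difference of SKIP was -1.18 ± 0.22 (SE; limma adjusted p = 0.00077), and it was the only gene of this list to pass that test.

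Of 26 sodium, calcium and chloride channel genes, 13 were named on the array, and the 3 tested were Teh1, unc80 and ClC-b, all below 0 and 0 called. Those without a value included the sodium channel subunit gene tipE and the leak channel genes na and unc79. Of 19 pump and exchanger genes, 10 were named and 4 tested, 3 of them above 0 and 0 called. The gene below 0 was Nhe1, another sodium/proton exchanger gene, at -0.45, -0.23 and -1.04 in replicates 1 to 3. Nhe1 had 1 sign on all 3 and a mean of -0.57 ± 0.17 (SE, n = 3; limma adjusted p = 0.265). With 2 arrays of TEA in Cy5 and 1 of TEA in Cy3, a dye effect does not cancel in this mean. The dye difference of Nhe1 was 0.70, higher with TEA in Cy5.

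Of 17 vacuolar proton pump genes 6 were named and 3 tested, all with means above 0 and 0 called. Vha44 stood at 0.14 ± 0.12 (SE, n = 4), Vha26 at 0.02 ± 0.19 and VhaAC45 at 0.0055 ± 0.13 (SE, n = 3 each). Each of the 3 had arrays on both sides of 0. Of 8 dystrophin complex genes 5 were named and 3 tested, 0 called, with Dyb beside Syn2, a syntrophin, at -0.05 ± 0.11 and Scgbeta, a sarcoglycan, at 0.01 ± 0.09 (SE, n = 4 each). Scgbeta lay between -0.02 and 0.05 on every array and had its orientations on opposite sides of 0 as Dyb had, over a much narrower range. Across all named genes 79.4% had no value on any array, against 64.3% of the potassium channel genes and partners, 76.9% of the other channel genes and 60% of the pump and exchanger genes.

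**Figure D4:**
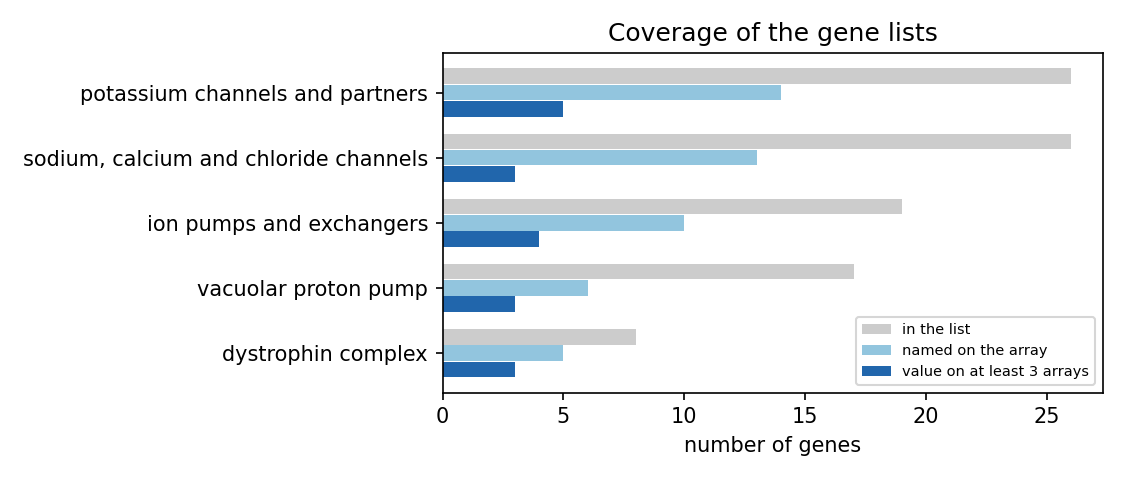
Number of genes (horizontal axis) in each of 5 lists, for all genes listed (grey), those named on the array (light blue) and those with a value on at least 3 arrays (dark blue). Between 3 and 5 genes per list were tested.

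The head origin and other cell types were checked by markers, of which a ratio table shows only whether the spots passed the filters. Of 6 photoreceptor markers on the array 4 were measured, and of 3 neuronal markers, nSyb, Csp and Appl, none was. The 6 measured of 8 fat body markers had a median of 0.42 and a range of -0.03 to 0.75, with apolpp, the lipid carrier precursor, called at 0.75 ± 0.10 (SE, n = 4; limma adjusted p = 0.021). The 1 measured glial marker, Gs2, stood at 0.42 ± 0.11, the 2 measured muscle markers, Act88F and Mlc2, at 0.19 and -0.12, and none of 3 testis markers was measured. The part of tissue composition in the values of the 10 genes was not tested.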

How the data were processed

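RNA of TEA and control heads was hybridised to 4 two-colour cDNA arrays. The authors deposited log2 ratios for each array, made with GenePix Pro 6.0 and Acuity 4.0, per the labels' design text. Spots that failed filters on intensity, saturation, flags, uniformity or signal to noise are empty. The arrays held 6248, 6212, 5910 and 5444 values after 8 values at the ceiling were set to missing. No scanner values were used, so signal over background cannot be shown, and the number of arrays limits the precision.

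Duplicate neighbouring spots were averaged to probes and probes to genes, with symbols from the platform annotation updated through the RefSeq table of Release 6. The identifier of Slob was absent there, so its platform symbol was used. limma 3.58.1 in R 4.3.3 tested the mean of each gene measured on 3 or 4 arrays against 0 (two-sided, Benjamini-Hochberg over 1379 genes), and with dye orientation as a second coefficient. Missing arrays were left missing. Scripts were tested on simulated data. Replicates are separate sets of vials. All members were named, with listed genes by smallest p and the nearest gene by distance. Members and lists were chosen with earlier results of these data known. Alternatives covered centring, turning, filters, averaging and leaving out each replicate.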

Additional observations from a re-analysis of the deposited data

Results flagged for a closer look

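Of the 7 genes with 4 values, Nckx30C had 1 array far from the others: its log2 ratio was 0.78 in replicate 3 and between -0.28 and -0.12 elsewhere. Chance sets apart about 1 in 20 groups by this measure.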

How the results depend on the processing

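The count of called genes, 8 over all arrays, was 0 with replicates 3 and 4 not turned (165 at an unadjusted limma p under 0.05) and 0 with each probe tested on its own (309), 2 with probes centred on their surroundings, an alternative chosen after seeing the data, 140 with a dye term, and between 3 and 25 without 1 replicate. No gene of the 10 was called for TEA under any alternative except the dye term, where 1 was, nrv3. For the dye difference, 126 genes in all, the count was 24 with arrays centred on probes with 4 values, 58 with a value on all 4 arrays, 0 with single probes (498 at an unadjusted limma p under 0.05), 9 with local centring and between 0 and 126 without 1 replicate. Of the 10 genes, 4 were called for it in values as deposited, where genes with equally many values shared 1 SE. Leaving out any replicate leaves at most 1 array in 1 of the orientations. Calls of the dye difference among the 10 genes in those fits are therefore not counted here. Without replicate 4 the difference was -0.76 for nrv3 and -1.04 for Nckx30C, with replicate 3 as the only array with TEA in Cy3. That fit gave all 10 genes the same SE, 0.26.

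With replicates 3 and 4 not turned the log2 ratio took the other sign for Sh (-0.20), ClC-b (0.084), unc80 (0.05), nrv3 (-0.30), Nhe3 (-0.19) and Nckx30C (-0.29), and with local centring for Sh (-0.067) and Nhe3 (-0.010). Without 1 replicate it ran across 0, from -0.031 to 0.14 for Sh, -0.031 to 0.33 for Slob, -0.20 to 0.033 for Dyb, -0.16 to 0.019 for unc80, -0.040 to 0.13 for Nhe3 and -0.21 to 0.14 for Nckx30C. Shab and Teh1 stayed below 0 under every alternative run, with Teh1 at -0.054 with local centring against -0.20 with array medians, and Shab lay between -0.57 and -0.21 without 1 replicate. Both genes lack replicate 4, so leaving it out changed neither mean, and every alternative kept at least 1 array with TEA in Cy5. Their sign was therefore not checked on arrays with TEA in Cy3 alone. The dye difference took the other sign in deposited values for Slob (-0.19), ClC-b (-0.064) and unc80 (-0.18). Without 1 replicate it ran from -0.51 to 0.59 for Slob and from -0.051 to 0.39 for ClC-b. The causes were not tested. Local centring drops replicate 4 for Nckx30C, and the dye term cannot be fitted for Shab, Teh1 and unc80 with another array left out. Each ratio already pairs TEA with control on 1 array, so the test of the mean is the paired one.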
